A study of Homo sapiens with 30 samples.

Results

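Collagen genes were followed in the human bladder cancer line UMUC1, an established line with a loss-of-function change of UTX, the histone demethylase encoded by KDM6A. Members were all rows whose gene name was COL, a number, A and a number. There were 44 such rows among the 58288 genes of the first experiment's count table and 27 among the 20073 of the second. All 27 were in both tables, and the other 17 had a row in the first table. A member is named with its values where its mean reached 1 CPM (counts scaled to library size, as edgeR gives them) in at least 1 group, which 22 did; the remaining 22 are given by range and counts. Of the 44, the filter on low counts kept 27 for testing in the first experiment and 26 of 27 in the second.

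The first experiment had 18 libraries in 6 groups of 3. Cells stably carried pSIN-puro as an empty vector (EV), with wild type UTX, or with UTX bearing H1146A and E1148A (HEAA). Each line grew in MEM plus 10% fetal bovine serum (full medium) or in serum-free MEM with B27 lacking vitamin A and 20 ng/ml each of FGF2 and EGF (sphere medium). The second experiment had 12 libraries in 4 groups of 3, all in full medium. Its cells carried pBabe-puro with wild type FGFR3 (FGFR3WT) or FGFR3 S249C, a bladder cancer mutation of this growth factor receptor, together with pCDH-blasticidin as EV or with UTX. RNA was harvested on day 3. The labels do not say whether the lines were clones or pools, or whether the 3 numbered replicates came from separate cultures. The p-values therefore cover the spread of these libraries alone, and that spread may be technical.

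Collagens are extracellular matrix proteins built of 3 alpha chains wound into a triple helix, and each gene encodes 1 type of chain. Fibrillar collagens form cross-striated fibres, FACIT collagens sit on fibre surfaces, type IV collagens form the sheet of basement membranes, and type VII anchors that sheet to the tissue beneath. Transmembrane collagens such as type XVII, a hemidesmosome component, span the cell membrane. Type IV chains assemble as COL4A1 with COL4A2, as COL4A3 with COL4A4 and COL4A5, or as COL4A5 with COL4A6. The 6 type IV genes lie as 3 head-to-head pairs, each pair transcribed outwards from a shared stretch of DNA.

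Those shared stretches are printed because the pairs moved in different ways across the groups. They are the plus strand of GRCh38.p14 from RefSeq, with CCAAT and GGGCGG and their reverse complements in capitals. The first, chr13:110307158-110307283, is the whole interval of 126 bases between the starts of COL4A2 (plus strand) and COL4A1 (minus strand). The second, chr2:227164374-227164623, is the 250 bases before the start of COL4A3, which lies 418 bases from that of COL4A4. The third, chrX:108439588-108439837, is the 250 bases before the start of COL4A5, which lies 379 bases from the nearer of 2 RefSeq starts of COL4A6.
COL4A2/COL4A1: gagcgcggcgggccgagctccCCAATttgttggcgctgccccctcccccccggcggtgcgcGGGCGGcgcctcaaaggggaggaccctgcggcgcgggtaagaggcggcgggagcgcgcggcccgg
COL4A3/COL4A4: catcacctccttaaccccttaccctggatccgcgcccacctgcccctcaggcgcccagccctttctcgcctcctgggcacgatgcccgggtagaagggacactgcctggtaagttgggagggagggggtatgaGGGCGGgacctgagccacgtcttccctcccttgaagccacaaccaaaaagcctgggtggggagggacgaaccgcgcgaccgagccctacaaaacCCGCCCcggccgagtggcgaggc
COL4A5/COL4A6: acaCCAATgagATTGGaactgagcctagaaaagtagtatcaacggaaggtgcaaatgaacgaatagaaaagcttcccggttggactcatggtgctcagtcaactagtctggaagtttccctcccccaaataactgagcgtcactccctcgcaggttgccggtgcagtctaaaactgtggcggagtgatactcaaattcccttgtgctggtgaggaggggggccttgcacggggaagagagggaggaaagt

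The COL4A2/COL4A1 interval was 80.2% G and C, with 1 CCAAT and 1 GGGCGG match on either strand. The COL4A3 stretch was 66.4% G and C with 2 GGGCGG matches, and the COL4A5 stretch 51.2% with 2 CCAAT matches. No TATAAA was in the 3 stretches. RefSeq start windows of 300 bases, from 250 before to 50 after a start, matched 32 of the 44 collagens in 44 windows. CCAAT was in 31.8% of them and in 34.6% of all 35116 windows, and GGGCGG in 54.5% and 45%. TATAAA was in 18.2% and 11.5%, and TGANTCA in 2.3% and 7.7%. All were searched on both strands, and a match describes the letters, not binding.

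Library totals were 23749352 to 40111234 counts in experiment 1 and 21672408 to 28290664 in experiment 2. KDM6A, the gene of UTX, matched the labels in all groups, at 7.71 to 17.9 CPM in the EV libraries and 568 to 957 CPM in those with UTX or HEAA. FGFR3 was at 1301 ± 74.9 CPM in EV_FGFR3WT and 2322 ± 109.5 CPM in EV_FGFR3S249C (SD, n = 3), so EV_FGFR3S249C also held more FGFR3 RNA. Of the fibroblast markers other than collagens, DCN, PDGFRA, PDGFRB and THY1 did not exceed 0.157, 0.0971, 0.586 and 0.0427 CPM in any library with a row for them. S100A4, ACTA2, FAP and POSTN are given only within the sum below. POSTN had 0 counts in EV_full and was detected in UTX_full and HEAA_full. The summed level of the 10 fibroblast markers was 679 to 721 CPM in EV_full, 1117 to 1191 in UTX_full, 857 to 906 in HEAA_full, 149.6 to 163 in EV_sphere, 267 to 295 in UTX_sphere and 221 to 248 in HEAA_sphere. Most of this was FBLN1, a secreted matrix glycoprotein, at 646 ± 17.1 CPM in EV_full, and LUM, given below, was also expressed. Of the 10 markers, 7 passed the filter on low counts in experiment 1. In UTX_full against EV_full 4 of these were higher and 1 lower, beside 28.4% and 29.2% of all fitted genes. Their median log2 fold change was 0.77, beside 0.04 over all fitted genes. The other experiment's table had rows for 6 of the 10, which summed to 419.6 to 674 CPM. The 8 urothelial and epithelial markers summed to 8765 to 9109.7 CPM in EV_full, 5664 to 5948 in UTX_full and 6040.1 to 6275 in HEAA_full. In sphere medium they summed to 22949.8 to 24231 CPM in EV, 10766 to 10896 in UTX and 12877 to 13907 in HEAA lines. The sum was lower with UTX and HEAA in either medium, while single markers moved both ways. In UTX_sphere against EV_sphere 5 of 8 were higher and 3 lower, beside 22.8% and 25.6% of all fitted genes. In HEAA_sphere against EV_sphere 3 were higher and 3 lower, beside 19.9% and 21.5%. In full medium UTX gave 2 higher and 4 lower, beside 28.4% and 29.2%, and HEAA 1 and 5, beside 23.2% and 25.3%. In the second experiment the 8 markers summed to 8107 to 8535 CPM in EV_FGFR3WT, 7229 to 7510.4 in UTX_FGFR3WT, 6989 to 7241 in EV_FGFR3S249C and 7101 to 7712 in UTX_FGFR3S249C. The 8 leukocyte and endothelial markers summed to 6.06 to 7.24 CPM in EV_full, 6.88 to 7.56 in UTX_full and 9.28 to 9.66 in HEAA_full. In sphere medium they summed to 11.9 to 14.1 CPM in EV, 18.9 to 19.8 in UTX and 18.3 to 19.6 in HEAA lines. In EV_sphere against EV_full 3 of the 4 fitted were higher and 0 lower, beside 33.1% and 32.4% of all fitted genes. By edgeR's unadjusted p under 0.05 and by DESeq2, 0 were lower too. The part of these markers in the collagen results was not tested.

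Ordered by level per kilobase of merged exon, a few collagens carried most collagen RNA in EV_full. COL12A1, a FACIT collagen, had 69.7 CPM per kilobase, and COL17A1 67.0. COL7A1, the anchoring fibril chain, followed at 15.6, then COL4A5 at 12.5 and COL4A6 at 12.1. COL1A1, the main chain of the type I fibrils that fibroblasts secrete, was far below at 0.54 CPM per kilobase. Sphere medium changed that order: COL17A1 stood at 138 CPM per kilobase in EV_sphere, COL7A1 at 26.0, COL6A1 at 17.3 and COL12A1 at 13.8. In EV_FGFR3WT, from the second table, COL17A1 was at 65.0 and COL7A1 at 50.4 CPM per kilobase.

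By class, FACIT collagens made up 36.1% ± 0.239 of the summed collagen level per kilobase in EV_full (SD, n = 3), 20.0% ± 0.768 in UTX_full and 6.38% ± 0.121 in EV_sphere. The FACIT level itself was 70.8 ± 1.77 CPM per kilobase in EV_full, 65.9 ± 4.73 in UTX_full and 14.5 ± 1.05 in EV_sphere. The sum over all collagens was 196 ± 5.21, 329 ± 13.0 and 227 ± 12.6 CPM per kilobase in turn. The transmembrane share was 34.2% ± 0.339 in EV_full, 43.0% ± 1.46 in UTX_full and 60.8% ± 0.368 in EV_sphere. Type IV chains held 15.6% ± 0.0674 in EV_full and 10.8% ± 0.184 in EV_sphere. The type VI share was 0.304% ± 0.0224 and 7.63% ± 0.193 in the same groups, and the fibrillar share 3.71% ± 0.0332 and 2.27% ± 0.0158. Between EV_full and EV_sphere each of these shares differed by more than the spread of the 3 libraries of either group.

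**Figure D1:**
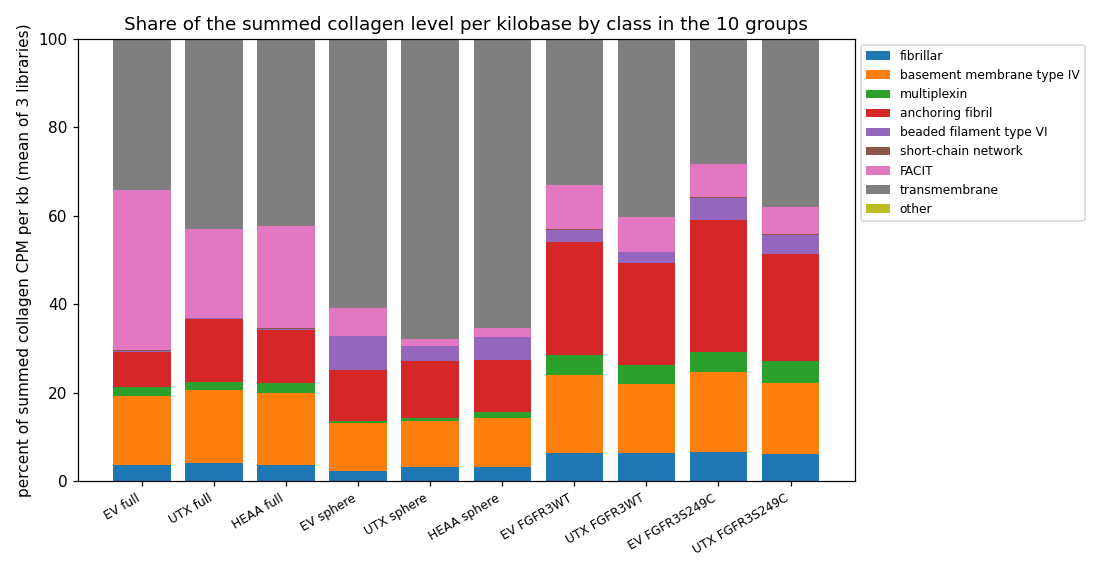
Stacked bars give each collagen class as a percent of the summed collagen CPM per kilobase, as the mean of 3 libraries in each of the 10 groups. The transmembrane class takes 34.2% in EV_full and 60.8% in EV_sphere, and the FACIT class 36.1% and 6.38%.

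In full medium of the first experiment most collagens that could be tested were higher in the UTX line than in the EV line. In UTX_full against EV_full 15 of 27 fitted collagens were higher and 2 lower, beside 28.4% and 29.2% of all fitted genes (57.7% in either direction). The median log2 fold change was 0.53 over the fitted collagens and 0.04 over all fitted genes. Of the type IV chains 5 of 6 were higher and 1 lower, and of the fibrillar chains 6 of 8 were higher. COL2A1 was among these 6, on 5 counts over UTX_full against 0 over EV_full.

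Among the named chains the largest rises were in the COL4A3 and COL4A4 pair, chains of the basement membrane network of kidney glomerulus and lung. COL4A4 was at 12.6, 15.0 and 13.4 CPM in the 3 EV_full libraries and at 129.5, 114 and 131 in UTX_full. That is a 9.13-fold rise, with a log2 fold change of 3.19 ± 0.06 (adjusted p = 1.21e-20). COL4A3 went from 1.63, 2.02 and 1.29 CPM to 24.1, 22.7 and 28.1, a log2 fold change of 3.93 ± 0.15 (adjusted p = 3.7e-15). In neither gene did any UTX library overlap the EV libraries. COL4A5 rose from 146, 155 and 144 CPM to 272, 250.3 and 275 (0.84 ± 0.05 on the log2 scale, adjusted p = 2.76e-12). Its neighbour COL4A6 changed little, from 112 ± 3.16 to 126 ± 7.86 CPM (adjusted p = 0.00883). That call was lost when EV_full replicate 3 was left out (adjusted p = 0.06), and when UTX_full replicate 1 was (adjusted p = 0.0723). COL4A1, a chain of nearly all basement membranes, was lower in all 3 UTX_full libraries, at 57.9, 52.9 and 48.7 CPM against 67.4, 63.0 and 63.3 (-0.28 ± 0.05, adjusted p = 0.000106). COL4A2 rose on a low level, from 0.633 ± 0.0819 to 1.23 ± 0.205 CPM (adjusted p = 0.00848).

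Among the epithelial adhesion collagens, COL7A1 was at 171, 183 and 164 CPM in EV_full and 523, 502 and 537 in UTX_full, a log2 fold change of 1.59 ± 0.06 (adjusted p = 4.69e-15). COL17A1, which joins the cell to the basement membrane, went from 469.7, 484 and 467 to 1048, 987 and 961 CPM (1.08 ± 0.05, adjusted p = 1.15e-13). The libraries of the groups lay apart for both genes. COL18A1, a basement membrane multiplexin whose fragment is endostatin, rose from 33.1 ± 1.89 to 47.9 ± 2.93 CPM (adjusted p = 2.05e-07).

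Of the fibrillar chains, COL27A1, a chain of cartilage and epithelia, was the most abundant, and it rose from 90.8, 89.9 and 86.7 CPM to 160.2, 153 and 171 (0.86 ± 0.05, adjusted p = 9.19e-13). COL1A1 rose from 4.96, 5.95 and 5.01 to 7.64, 8.83 and 8.14 CPM (0.62 ± 0.09, adjusted p = 6.17e-06). COL5A2, a type V chain that regulates fibre width, rose from 0.688 ± 0.114 to 2.03 ± 0.259 CPM (adjusted p = 8.77e-07), and COL11A2 from 1.42 ± 0.279 to 2.38 ± 0.115 (adjusted p = 0.00122). COL3A1, the type III chain, had 0 counts over the 3 EV_full libraries and 33 over UTX_full, at least 12.4-fold higher by a floor of 3 counts over the group; it lies under the level set for naming and was picked out after its values were seen.

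The FACIT collagens moved otherwise. COL12A1, which sits on fibre surfaces, was at 875, 889 and 845 CPM in EV_full and 859, 748 and 838 in UTX_full, with overlapping libraries and a 95% interval of the log2 fold change of -0.21 to 0.02 (adjusted p = 0.142). COL16A1 fell from 7.05, 7.50 and 7.97 to 3.95, 3.22 and 3.05 CPM (-1.14 ± 0.13, adjusted p = 1.2e-07). COL6A1, the type VI chain of beaded filaments, rose from 3.06 ± 0.138 to 4.02 ± 0.22 CPM (adjusted p = 0.00547). The network chains COL8A1 and COL8A2 did not pass, at 0.184 ± 0.115 and 0.627 ± 0.0702 CPM in UTX_full.

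**Figure D2:**
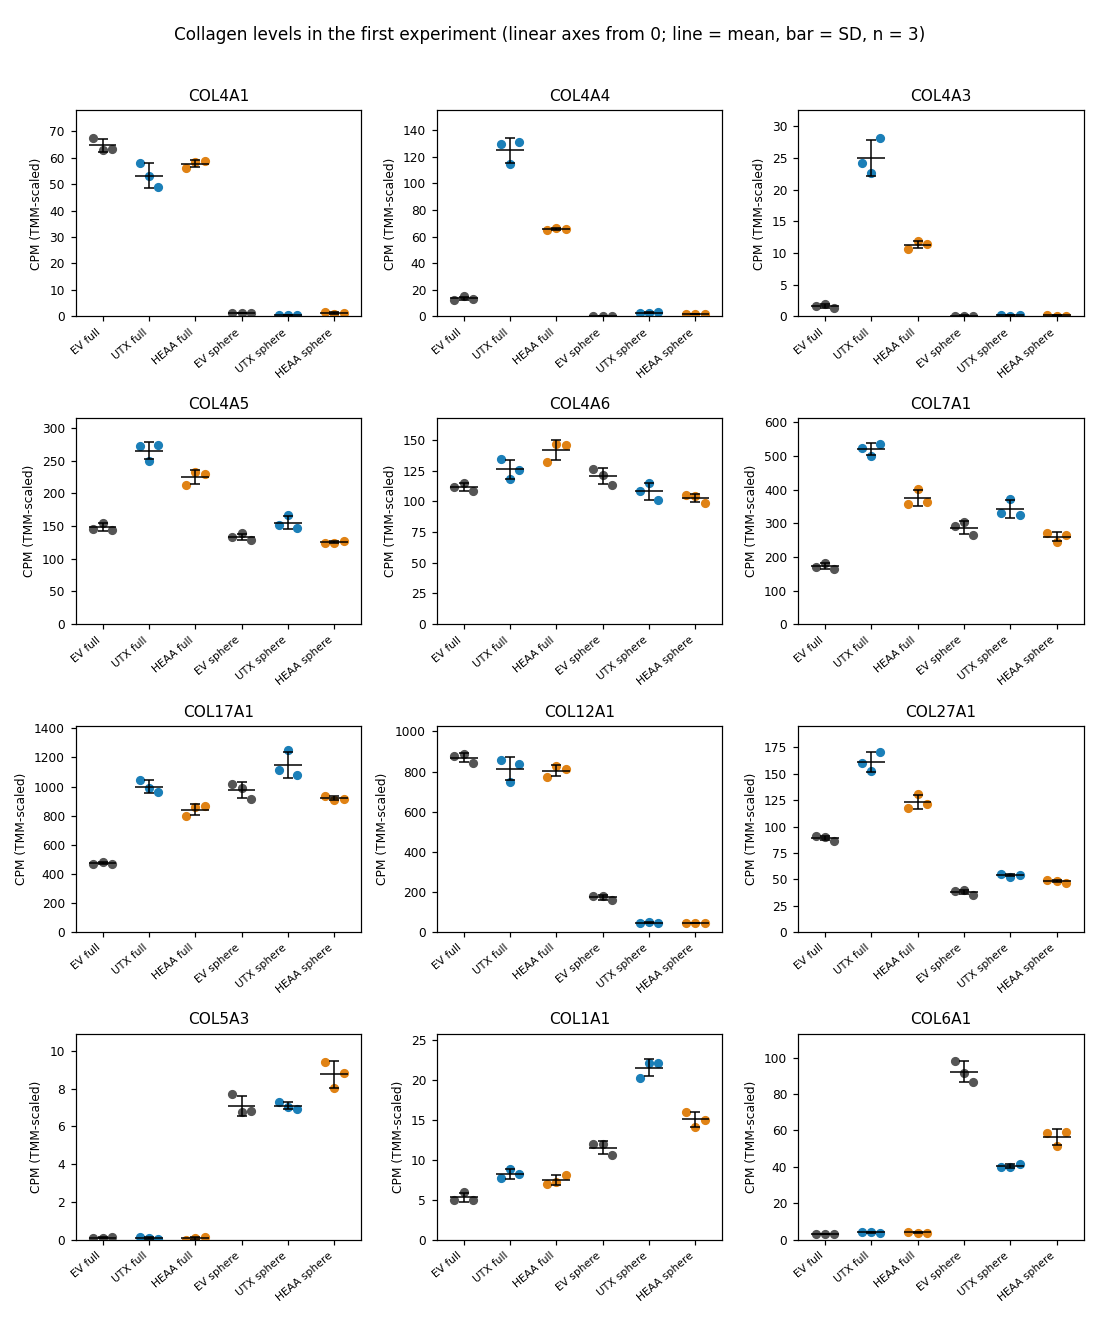
Points are single libraries of the first experiment for 12 collagens, as CPM on linear axes from 0, with a line at the mean of the 3 libraries of each group and error bars of 1 SD. COL4A3 and COL4A4 are highest in UTX_full and drop in all 3 sphere groups, where COL5A3 and COL6A1 are high.

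HEAA, with both catalytic-domain changes, was compared with the same EV libraries, so its contrast is not independent of that of UTX. In HEAA_full against EV_full 15 of 27 fitted collagens were higher and 1 lower, beside 23.2% and 25.3% of all fitted genes (48.5% in either direction). COL4A4 reached 64.9, 66.6 and 65.6 CPM (2.26 ± 0.06, adjusted p = 1.09e-17) and COL4A3 10.7, 11.9 and 11.4 CPM (2.79 ± 0.16, adjusted p = 4.88e-12), above EV_full and below UTX_full in every library. COL7A1 was at 359, 402 and 364 CPM (1.12 ± 0.06, adjusted p = 2.79e-12) and COL17A1 at 795, 862 and 867 CPM (0.83 ± 0.05, adjusted p = 1.62e-11). COL4A5 was at 225 ± 10.4 CPM, COL27A1 at 123 ± 6.95, COL18A1 at 52.6 ± 3.71 and COL5A2 at 2.04 ± 0.361 CPM, all called higher than EV_full. COL16A1 stayed near its EV level at 6.89 ± 0.871 CPM (adjusted p = 0.418, 95% interval -0.37 to 0.12). The calls for COL4A2 and COL6A3, at 1.09 ± 0.0794 and 0.494 ± 0.124 CPM, were lost under 8 and 6 alternatives each, with adjusted p of 0.0547 to 0.136 and 0.0528 to 0.183. The calls for COL11A2 and COL6A1 were also lost under some alternatives, with adjusted p of 0.0504 to 0.0853 and 0.0624 to 0.0631. The lower call was COL4A1 (adjusted p = 0.0153), which was lost with DESeq2 (-0.16, adjusted p = 0.0547). With a library left out, 12 to 16 collagens were called in place of 16. The median log2 fold change was 0.49 over the fitted collagens and 0.03 over all fitted genes.

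Set directly against HEAA in full medium, UTX had 6 fitted collagens higher and 2 lower, beside 8.95% and 12.4% of all fitted genes (21.4% in either direction). COL4A3 was 2.21-fold higher with UTX (1.14 ± 0.12, adjusted p = 5.78e-07) and COL4A4 1.90-fold (0.93 ± 0.05, adjusted p = 1.47e-11). COL7A1 differed by 0.47 ± 0.06 (adjusted p = 7e-06), COL27A1 by 0.39 ± 0.05 (adjusted p = 2.53e-06), COL17A1 by 0.25 ± 0.05 (adjusted p = 0.00105) and COL4A5 by 0.24 ± 0.05 (adjusted p = 0.000873) on the log2 scale. COL16A1 was lower with UTX (-1.01 ± 0.13, adjusted p = 9.24e-06). COL4A6 was also called lower, which was lost without any 1 of 4 libraries (adjusted p = 0.0724 to 0.17). COL5A2 did not pass (95% interval -0.37 to 0.38), nor did COL1A1 (-0.05 to 0.33) or COL18A1 (-0.26 to 0.00). The median log2 fold change was 0.02 over the fitted collagens and 0.00 over all fitted genes.

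Sphere medium was compared with full medium in each line. In EV_sphere against EV_full 6 of 27 fitted collagens were higher and 12 lower, beside 33.1% and 32.4% of all fitted genes (65.5% in either direction), with medians of -0.15 over the collagens and -0.03 over all fitted genes. The same contrast gave 7 higher and 14 lower in UTX lines, beside 35.1% and 35.4% of all genes (70.5% in either direction). In HEAA lines it gave 7 higher and 17 lower, beside 34.4% and 36.3% (70.8% in either direction). In all 3 lines the lower calls took a larger share of the 27 than of all genes, and the higher calls a smaller one. The median was -0.61 over the fitted collagens and -0.06 over all fitted genes in UTX lines and -0.97 over the fitted collagens and -0.07 over all fitted genes in HEAA lines.

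Type IV chains of 2 of the 3 pairs fell to about 1 CPM or below in EV in sphere medium. COL4A1 was at 67.4, 63.0 and 63.3 CPM in EV_full and 1.27, 1.25 and 1.17 in EV_sphere, a 52.4-fold fall (-5.71 ± 0.09, adjusted p = 3.19e-22). COL4A4 fell to 0.568, 0.557 and 0.453 CPM in EV_sphere (-4.69 ± 0.14, adjusted p = 5.55e-18), and COL4A3 to 0, 4 and 3 counts per library (-4.31 ± 0.40, adjusted p = 4.34e-09). With UTX the same falls were -6.40 ± 0.12, -5.51 ± 0.08 and -7.19 ± 0.24 on the log2 scale, for COL4A1, COL4A4 and COL4A3 in turn. The third pair changed little in EV: COL4A5 was at 133, 139 and 129 CPM, a call lost without EV_full replicate 2 (adjusted p = 0.0816) or EV_sphere replicate 3 (adjusted p = 0.0716), and COL4A6 at 126, 122 and 113 CPM (adjusted p = 0.0967). COL4A2, already low, had 4, 3 and 6 counts in the EV_sphere libraries (-2.08 ± 0.41, adjusted p = 0.000133). In the other lines the third pair fell too. COL4A5 went from 266 ± 13.3 to 155 ± 9.84 CPM with UTX (-0.78 ± 0.05, adjusted p = 4.54e-12) and from 225 ± 10.4 to 125 ± 1.35 with HEAA (-0.85 ± 0.05, adjusted p = 1.16e-12), and COL4A6 changed by -0.22 ± 0.05 (adjusted p = 0.00103) and -0.47 ± 0.05 (adjusted p = 1.13e-07) in turn.

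COL12A1 fell with medium in all 3 lines. It was at 181, 179 and 158 CPM in EV_sphere, 5.05-fold under EV_full (-2.34 ± 0.06, adjusted p = 2.42e-19), at 43.6, 48.9 and 43.1 in UTX_sphere and at 45.3, 44.1 and 43.4 in HEAA_sphere. COL27A1 fell from 89.1 ± 2.16 to 37.7 ± 2.06 CPM in EV (-1.24 ± 0.05, adjusted p = 1.96e-15), COL18A1 to 11.6 ± 0.145 CPM (-1.51 ± 0.08, adjusted p = 9.13e-14) and COL16A1 to 3.47 ± 0.428 CPM (-1.12 ± 0.13, adjusted p = 1.11e-07). COL11A2 also fell, to 0.693 ± 0.084 CPM (adjusted p = 0.000242). The fibroblast marker LUM, a proteoglycan that binds collagen fibres, moved with these, from 41.9 ± 4.51 CPM in EV_full to 1.05 ± 0.0419 in EV_sphere, and FBLN1 fell to 131 ± 6.31 CPM; their part in the collagen falls was not tested.

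Other chains rose in EV in sphere medium. COL6A1 was at 3.15, 2.90 and 3.13 CPM in EV_full and 98.2, 91.7 and 86.7 in EV_sphere, a 30.1-fold rise (4.91 ± 0.07, adjusted p = 3.93e-23). Of its partner chains, COL6A2, with 0, 0 and 3 counts in the EV_full libraries and 1, 2 and 4 in EV_sphere, was too low to be fitted, and COL6A3 did not pass, at 0.402 ± 0.0146 CPM in EV_sphere (adjusted p = 0.112). COL5A3, a type V chain, had 2, 3 and 5 counts in EV_full and 231, 194 and 211 in EV_sphere (6.13 ± 0.23, adjusted p = 8.04e-16). COL1A1 rose from 5.31 ± 0.557 to 11.5 ± 0.822 CPM (1.11 ± 0.09, adjusted p = 3.55e-10), COL17A1 to 1019.8, 989.5 and 912 CPM (1.04 ± 0.05, adjusted p = 6.13e-14) and COL7A1 to 291, 305 and 266 CPM (0.74 ± 0.06, adjusted p = 5.76e-10). COL7A1 fell instead in UTX lines, to 329, 373 and 325 CPM (-0.61 ± 0.06, adjusted p = 1e-08), and in HEAA lines, to 271, 245 and 264 CPM (-0.53 ± 0.06, adjusted p = 9.12e-08). COL17A1 had smaller rises there, of 0.20 ± 0.05 (adjusted p = 0.00132) in UTX lines and 0.13 ± 0.05 (adjusted p = 0.0264) in HEAA lines, the last a call lost without HEAA_full replicate 1 (adjusted p = 0.0539). COL13A1, a transmembrane chain of cell contacts, was called higher at low counts, 9, 12 and 9 against 0, 4 and 1 (adjusted p = 0.00023).

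**Figure D3:**
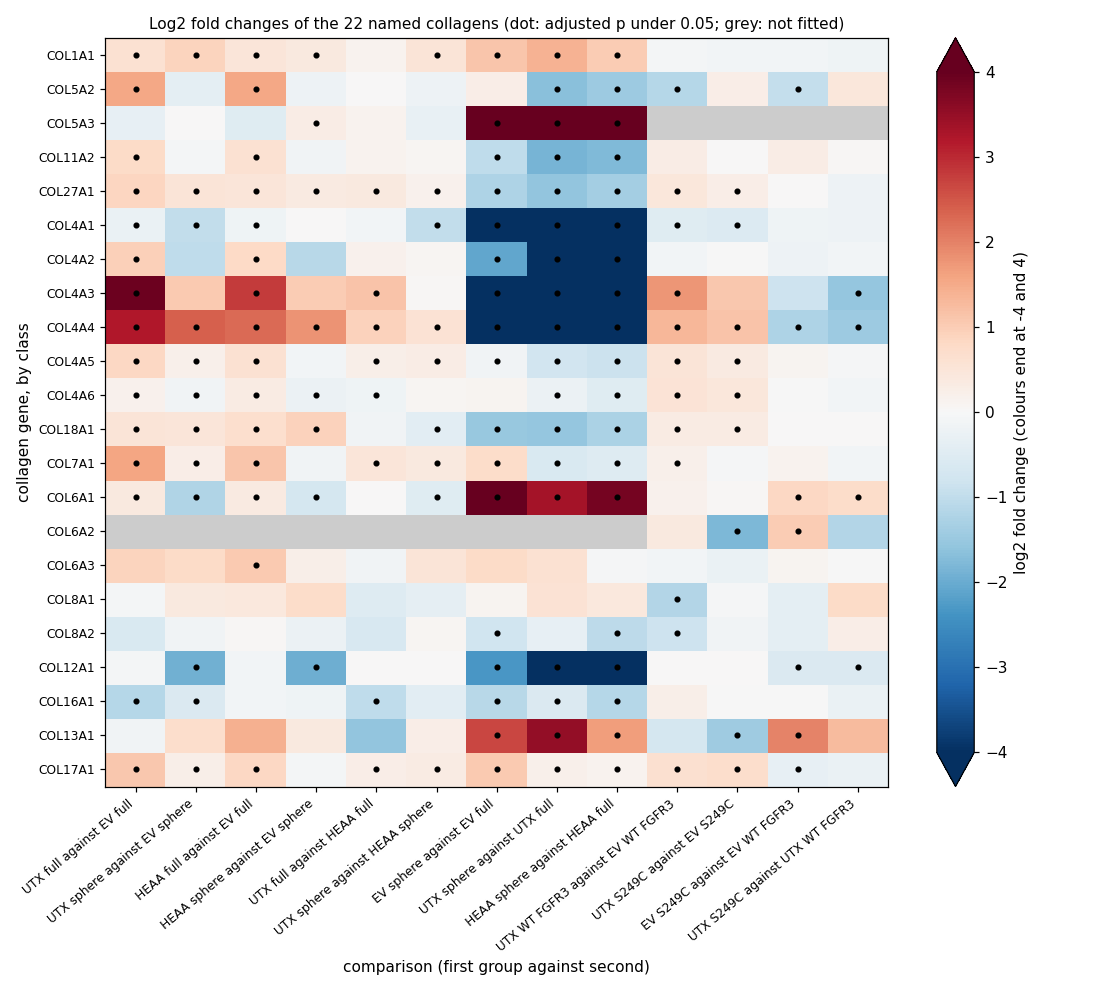
Each cell is the log2 fold change of 1 named collagen in 1 comparison, coloured from blue (lower) to red (higher) with the scale ending at -4 and 4; a dot marks adjusted p under 0.05, and grey a gene that was not fitted. Sphere against full medium shows blue for COL4A1, COL4A3, COL4A4 and COL12A1 and red for COL5A3 and COL6A1.

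Within sphere medium the collagens called with UTX were a more even mix. In UTX_sphere against EV_sphere 8 of 27 fitted collagens were higher and 5 lower, beside 22.8% and 25.6% of all fitted genes (48.4% in either direction). In HEAA_sphere against EV_sphere, which shares the EV libraries, 7 of 27 fitted collagens were higher and 3 lower, beside 19.9% and 21.5% of all fitted genes (41.4% in either direction). COL12A1 was lower with UTX (-1.93 ± 0.06, adjusted p = 1.81e-16) and with HEAA (-1.96 ± 0.06, adjusted p = 2.13e-16), and the groups did not overlap. COL6A1 was at 39.8, 39.6 and 41.5 CPM with UTX (-1.19 ± 0.05, adjusted p = 3.42e-14) and 58.7, 51.4 and 59.3 with HEAA (-0.70 ± 0.05, adjusted p = 1.37e-10), both below EV_sphere. COL4A4 was higher, at 2.63, 2.56 and 3.05 CPM with UTX (2.38 ± 0.21, adjusted p = 2.83e-09) and 1.79, 1.83 and 1.95 with HEAA (1.81 ± 0.21, adjusted p = 4.91e-07), yet below the EV_full level. COL1A1 was at 20.2, 22.1 and 22.1 CPM with UTX (0.90 ± 0.08, adjusted p = 2.97e-09) and 16.0, 14.1 and 15.0 with HEAA (0.40 ± 0.08, adjusted p = 0.00032). COL4A1 fell with UTX, to 0.597, 0.64 and 0.645 CPM (-0.97 ± 0.25, adjusted p = 0.00285), while with HEAA it was at 1.53, 0.892 and 1.20 CPM (95% interval -0.38 to 0.45). The median log2 fold change was 0.23 over the fitted collagens and -0.01 over all fitted genes with UTX, and 0.00 over the fitted collagens and -0.02 over all fitted genes with HEAA.

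In sphere medium, UTX against HEAA gave 6 fitted collagens higher and 3 lower, beside 8.87% and 11.2% of all fitted genes (20% in either direction). COL1A1 differed by 0.51 ± 0.08 (adjusted p = 7.3e-05), COL7A1 by 0.39 ± 0.06 (adjusted p = 9.8e-05) and COL17A1 by 0.32 ± 0.05 (adjusted p = 0.000131) on the log2 scale. COL4A1 was 2.00-fold lower with UTX (adjusted p = 0.0064). COL18A1 was lower with UTX (-0.43 ± 0.08, adjusted p = 0.000552), and COL6A1 too (-0.49 ± 0.05, adjusted p = 1.44e-06). The higher call for COL27A1 (adjusted p = 0.0369) was lost with no filter and without any 1 of the libraries compared (adjusted p = 0.0514 to 0.192). That for COL4A4 (adjusted p = 0.0115) was lost without HEAA_sphere replicate 1 (adjusted p = 0.0583) or UTX_sphere replicate 3 (adjusted p = 0.078). COL12A1 did not pass (95% interval -0.10 to 0.16). The median was 0.07 over the fitted collagens and 0.00 over all fitted genes.

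The interaction asks whether the effect of UTX differed between the media. The UTX effect was lower in sphere than in full medium for 13 of 27 fitted collagens and higher for 1, beside 16.2% and 21.1% of all fitted genes (37.3% in either direction). Without EV_sphere replicate 3 the total fell from 14 to 9. Differences that passed under every alternative run included COL12A1 (-1.84 ± 0.08, adjusted p = 1.75e-13), COL6A1 (-1.59 ± 0.13, adjusted p = 1.94e-09), COL7A1 (-1.34 ± 0.09, adjusted p = 7.29e-11), COL5A2 (-1.95 ± 0.31, adjusted p = 3.78e-05) and COL17A1 (-0.84 ± 0.07, adjusted p = 5.31e-09). The difference for COL4A3 was -2.88 ± 0.91 (adjusted p = 0.0159), and it was lost without EV_sphere replicate 2 (adjusted p = 0.204) or 3 (adjusted p = 0.0892). For HEAA, the effect was lower in sphere medium for 8 fitted collagens and higher for 0, beside 14.3% and 18.7% of all genes (33% in either direction), with COL12A1 at -1.85 ± 0.08 (adjusted p = 4.87e-13) and COL7A1 at -1.26 ± 0.09 (adjusted p = 3.59e-10). By edgeR's unadjusted p under 0.05, 2 were higher, and DESeq2 also called 0 higher. The median difference for UTX was -0.35 over the fitted collagens and 0.00 over all fitted genes, and for HEAA -0.70 over the fitted collagens and -0.01 over all fitted genes.

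In the second experiment UTX was added to cells that also carried an FGFR3 vector. Its table is separate, so the UTX effects of the 2 experiments stand side by side and their difference was not tested. In UTX_FGFR3WT against EV_FGFR3WT 8 of 26 fitted collagens were higher and 5 lower, beside 9.06% and 6.01% of all fitted genes (15.1% in either direction). In UTX_FGFR3S249C against EV_FGFR3S249C 6 of 26 fitted collagens were higher and 3 lower, beside 12.9% and 8.62% of all fitted genes (21.5% in either direction). Beside either form of FGFR3 both directions took a larger share of the collagens than of all genes, the lower calls beside S249C by little. That small excess depends on COL13A1, a call lost without EV_FGFR3S249C replicate 1 (adjusted p = 0.0519) or UTX_FGFR3S249C replicate 1 (adjusted p = 0.0595). Beside wild type FGFR3 the lower calls for COL8A1 and COL8A2 were lost under some alternatives (adjusted p = 0.0645 to 0.105 and 0.059 to 0.186), for COL8A2 with DESeq2 too. The median was 0.18 over the fitted collagens and 0.00 over all fitted genes beside wild type FGFR3, and -0.01 over the fitted collagens and -0.01 over all fitted genes beside S249C.

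COL4A4 rose beside either receptor. It was at 5.65, 5.58 and 5.99 CPM in EV_FGFR3WT and 15.0, 15.7 and 12.9 in UTX_FGFR3WT (1.34 ± 0.10, adjusted p = 1.79e-07), and at 2.37, 2.62 and 2.27 in EV_FGFR3S249C and 5.69, 5.32 and 4.95 in UTX_FGFR3S249C (1.14 ± 0.11, adjusted p = 4.43e-06). COL4A3 rose beside wild type FGFR3, from 10, 15 and 20 counts to 48, 43 and 55 (1.78 ± 0.33, adjusted p = 0.00139), and beside S249C its counts were 4, 5 and 17 and 19, 19 and 21 (1.09 ± 0.40, adjusted p = 0.0655). COL4A5 rose by 0.51 ± 0.05 (adjusted p = 3.49e-06) and 0.36 ± 0.05 (adjusted p = 6.56e-05) on the log2 scale, beside wild type and S249C in turn, and COL4A6 by 0.55 ± 0.06 (adjusted p = 1.08e-05) and 0.45 ± 0.06 (adjusted p = 6.22e-05). COL4A1 fell instead, from 223, 238 and 237 CPM to 169, 165 and 162 (-0.49 ± 0.06, adjusted p = 1.71e-05) and from 217, 206 and 204 to 149, 151 and 129.5 (-0.54 ± 0.06, adjusted p = 5.04e-06), with no overlap of libraries.

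COL17A1 was at 424, 492 and 463 CPM in EV_FGFR3WT and 730.2, 752 and 660.1 in UTX_FGFR3WT (0.64 ± 0.07, adjusted p = 1.93e-05), and rose by 0.69 ± 0.07 (adjusted p = 7.21e-06) beside S249C. COL27A1 rose from 134 ± 6.53 to 184 ± 1.13 CPM (0.46 ± 0.06, adjusted p = 7.22e-05) and by 0.25 ± 0.06 (adjusted p = 0.00822) beside S249C. COL18A1 rose by 0.32 ± 0.06 (adjusted p = 0.00126) and 0.32 ± 0.06 (adjusted p = 0.000872). COL1A1, at 22.7 ± 0.175 CPM in EV_FGFR3WT, did not pass with UTX (95% intervals -0.24 to 0.09 and -0.27 to 0.05), and COL12A1 did not pass (-0.21 to 0.20 and -0.20 to 0.21). COL7A1 rose slightly beside wild type FGFR3 (0.20 ± 0.05, adjusted p = 0.0162), a call lost without any 1 of 4 libraries (adjusted p = 0.0619 to 0.0983). COL5A2 fell beside wild type FGFR3, from 1.59, 1.45 and 1.66 to 0.562, 0.839 and 0.741 CPM (-1.13 ± 0.24, adjusted p = 0.00393), where in full medium of the first experiment it rose.

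**Figure D4:**
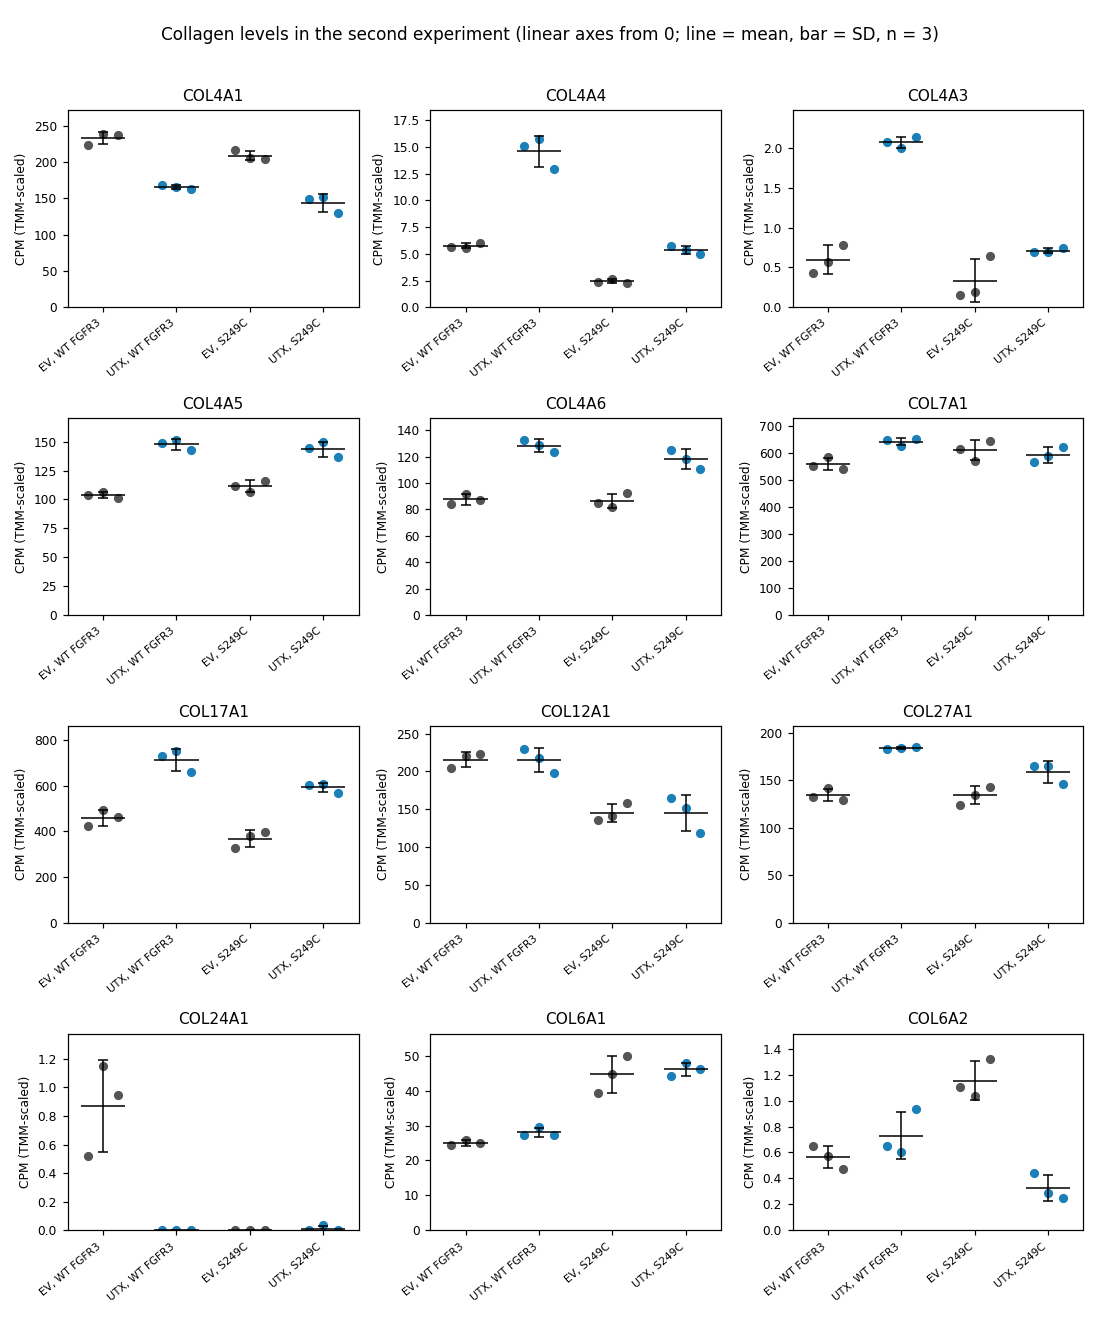
Points are single libraries of the second experiment for 12 collagens, as CPM on linear axes from 0, with a line at the mean of the 3 libraries of each group and error bars of 1 SD. COL4A4 is higher and COL4A1 lower in the UTX groups than in the EV groups beside both forms of FGFR3.

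FGFR3 S249C was compared with wild type FGFR3. In EV_FGFR3S249C against EV_FGFR3WT 3 of 26 fitted collagens were higher and 5 lower, beside 4.31% and 6.45% of all fitted genes (10.8% in either direction). With UTX 1 of 26 fitted collagens were higher and 3 lower, beside 1.71% and 1.34% of all fitted genes (3.05% in either direction), and DESeq2 called 7 in place of 4. COL12A1 was at 204, 220.4 and 222 CPM with wild type FGFR3 and 136, 141 and 158 with S249C in EV (-0.57 ± 0.10, adjusted p = 0.00155), and it fell by 0.57 on the log2 scale in UTX (adjusted p = 0.00373). COL6A1 rose from 24.3, 25.8 and 24.9 to 39.2, 44.7 and 49.8 CPM in EV (0.83 ± 0.07, adjusted p = 6.84e-06) and by 0.72 ± 0.07 (adjusted p = 4.37e-05) in UTX. COL4A4 was lower with S249C, by -1.25 ± 0.11 (adjusted p = 9.23e-06) in EV and -1.45 ± 0.10 (adjusted p = 7.98e-07) in UTX. COL13A1 was higher with S249C in EV, at 1.53, 1.47 and 1.17 CPM against 0.172, 0.229 and 0.631 (1.99 ± 0.40, adjusted p = 0.00569). COL17A1 was lower in EV (-0.32 ± 0.07, adjusted p = 0.011), a call lost without EV_FGFR3WT replicate 2 (adjusted p = 0.0564). In EV the higher call for COL6A2 was lost with DESeq2 and without some libraries (adjusted p = 0.0581 to 0.106). The lower call for COL5A2 was lost without replicate 3 of EV_FGFR3S249C (adjusted p = 0.0662) or EV_FGFR3WT (adjusted p = 0.0636). In UTX the lower call for COL4A3 was lost without some single libraries (adjusted p = 0.0511 to 0.0569). The median log2 fold change was -0.01 over the fitted collagens and 0.00 over all fitted genes in EV, and -0.04 over the fitted collagens and 0.00 over all fitted genes in UTX.

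COL24A1, a fibrillar chain under the level set for naming and picked out after its values were seen, had 12, 30 and 24 counts in the EV_FGFR3WT libraries. It had 0 in all libraries of UTX_FGFR3WT and EV_FGFR3S249C, at least 20.7-fold and at least 22.9-fold lower by a floor of 3 counts over the group. UTX_FGFR3S249C had 0, 1 and 0 counts. These bounds cover counting error only. The UTX effect differed between the receptors for 0 fitted collagens upward and 1 downward, beside 0.572% and 0.113% of all fitted genes (0.686% in either direction), with medians of -0.13 over the fitted collagens and 0.00 over all fitted genes. At an unadjusted p under 0.05 edgeR had 3 upward, and DESeq2 called 0. The 1 downward was COL6A2 (-2.19 ± 0.42, adjusted p = 0.0284), at 0.564 ± 0.087, 0.73 ± 0.179, 1.15 ± 0.151 and 0.327 ± 0.101 CPM in EV_FGFR3WT, UTX_FGFR3WT, EV_FGFR3S249C and UTX_FGFR3S249C. Its call was lost without any 1 of 7 libraries and with a replicate block (adjusted p = 0.0502 to 0.0954).

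Of the chains that form 1 trimer or share 1 start region, some were at like levels and others were not. Per kilobase, COL4A1 exceeded COL4A2 by 125 to 152 times in the 3 EV_full libraries and by 49.1 to 51.3 times in EV_FGFR3WT, although 126 bases separate their starts. Their GENCODE gene models overlap there, and with the strand setting of the counting not given in the sources used here, reads in the overlap cannot be told apart. COL4A3 to COL4A4 ratios were 0.107 to 0.149 in EV_full and 0.206 to 0.237 in UTX_full. COL4A5 to COL4A6 ratios were 1.02 to 1.05 in EV_full, 1.23 to 1.26 in HEAA_full and 1.58 to 1.71 in UTX_full. COL1A1 exceeded COL1A2, its partner in type I fibres, by 23.1 to 31.8 times in EV_full, where COL1A2 had 23 counts over 3 libraries. The merged exon lengths behind these ratios are those of GENCODE v29 and not of the notes' build.

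**Figure D5:**
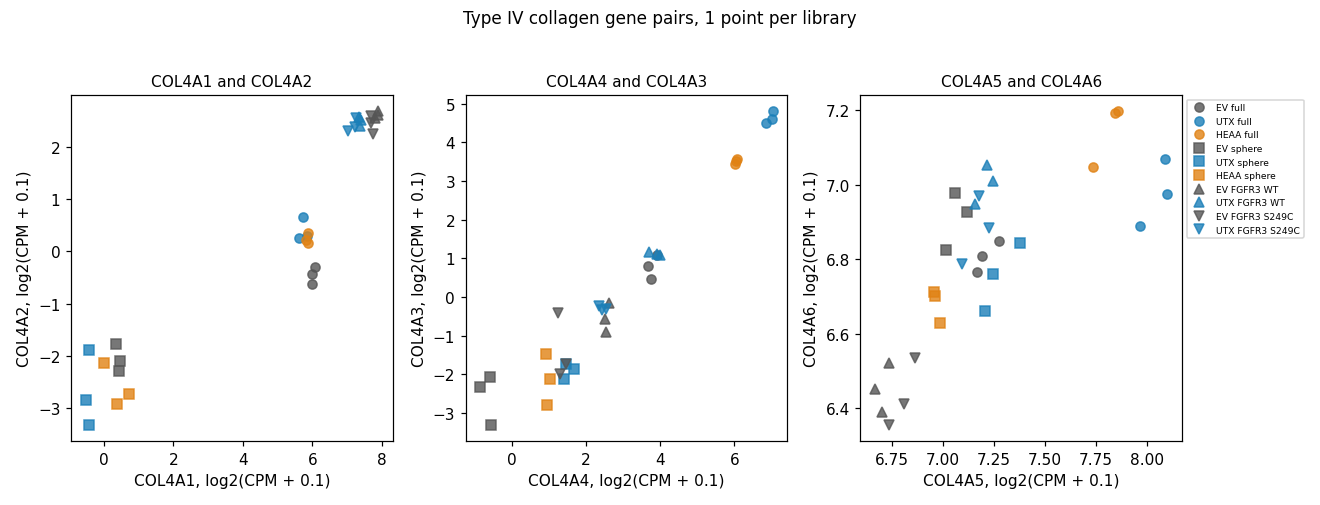
Each panel plots the 2 chains of 1 head-to-head type IV pair against each other, 1 point per library, as log2 of CPM plus 0.1, with gray for EV, blue for UTX and orange for HEAA. COL4A3 and COL4A4 are both highest in UTX_full and both low in the sphere groups, while the 2 axes of COL4A5 and COL4A6 span a narrow range.

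Genes that build, cut and bind collagens were listed too. Beside their counts stand the shares of all fitted genes given above for the same comparison, and medians over all fitted genes of 0.04 for UTX in full medium and -0.03 for sphere medium in EV. Among collagen modifying enzymes and chaperones, UTX_full against EV_full gave 8 of 16 higher and 6 lower (median log2 fold change 0.13), and EV_sphere against EV_full 9 of 16 higher and 5 lower (median log2 fold change 0.12), among them P3H2, a prolyl 3-hydroxylase that acts on type IV collagen (-4.19 ± 0.10, adjusted p = 2.51e-19). Among procollagen proteinases and crosslinking enzymes the counts were 6 of 10 higher and 2 lower (median log2 fold change 1.34) with UTX in full medium and 4 of 10 higher and 4 lower (median log2 fold change 0.71) with sphere medium in EV. LOX, which crosslinks fibres, fell with UTX (-2.68 ± 0.21, adjusted p = 3.89e-10) and LOXL4 rose (2.24 ± 0.06, adjusted p = 4.68e-18), and in EV_sphere LOX rose (2.35 ± 0.13, adjusted p = 6.89e-13) and LOXL4 fell (-8.19 ± 0.16, adjusted p = 3.77e-21). Among collagen-degrading enzymes and inhibitors the counts were 8 of 13 higher and 3 lower (median log2 fold change 0.82) and 5 of 13 higher and 6 lower (median log2 fold change 0.14) in the same contrasts. MMP2, a gelatinase that cuts type IV collagen, rose with UTX (1.68 ± 0.06, adjusted p = 5.94e-16), as did its inhibitor TIMP2 (1.60 ± 0.05, adjusted p = 2.58e-17). In EV_sphere MMP1, an interstitial collagenase, was higher (4.43 ± 0.11, adjusted p = 4.67e-19) and TIMP2 lower (-4.26 ± 0.06, adjusted p = 2.08e-23).

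Collagen receptors and hemidesmosome partners gave 10 of 14 higher and 1 lower (median log2 fold change 0.53) with UTX in full medium and 10 of 14 higher and 0 lower (median log2 fold change 0.47) in sphere medium. LAMA3 and LAMB3, laminin chains of the basement membrane under epithelia, rose with UTX in full medium, by 1.53 ± 0.07 (adjusted p = 3.03e-14) and 0.97 ± 0.08 (adjusted p = 1.05e-09). ITGA1, a collagen-binding integrin chain, fell (-1.49 ± 0.12, adjusted p = 1.07e-09). In the second experiment UTX against EV gave 5 of 15 higher and 0 lower (median log2 fold change 0.26) beside wild type FGFR3 and 7 of 15 higher and 0 lower (median log2 fold change 0.20) beside S249C, with the collagen receptor DDR1 at 0.51 ± 0.05 (adjusted p = 2.97e-06) and 0.67 ± 0.05 (adjusted p = 1.22e-07). In these 3 comparisons, UTX in sphere medium included, edgeR's unadjusted p under 0.05 and DESeq2 also gave 0 lower.

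The 22 collagens under the naming level reached at most 1.15 CPM in a library. COL21A1 was at 0 counts in all 18 libraries of the first experiment and had no row in the second table. COL9A3, a FACIT chain of cartilage, stood closest under the level at 0.973 ± 0.105 CPM in EV_sphere, and COL8A1 closest above it, at 1.01 ± 0.319 CPM in EV_FGFR3WT. Of the unnamed chains 8 were fitted. Calls among them, picked out after their values were seen, were for COL2A1, the cartilage fibril chain, with 2 counts over EV_sphere, 28 over UTX_sphere and 21 over HEAA_sphere. COL3A1, with 33 counts over UTX_full and 18 over HEAA_full, had 0 in all 9 sphere libraries. COL9A2 fell in EV_sphere (-1.88 ± 0.43, adjusted p = 0.000655), COL1A2 was higher in HEAA_sphere than in EV_sphere (1.16 ± 0.40, adjusted p = 0.0243), and COL28A1 was lower in HEAA_sphere than in HEAA_full (-1.93 ± 0.55, adjusted p = 0.00388). COL2A1 and COL1A2 also passed in other sphere comparisons, all at under 1 CPM. COL2A1 was called higher in UTX_full against EV_full too, on 5 counts over UTX_full against 0 over EV_full.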

How the data were processed

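The authors deposited 1 table per experiment, holding estimated counts of each gene as unscaled whole numbers. Per the submitters' processing notes, Salmon 0.8 and DESeq2 were used with hg19 and GRCh37. The transcript-to-gene step, annotation release, strand setting and second table's filter were not given in the sources used here. Per the labels' protocols, RNeasy RNA went into TruSeq (experiment 1) or NEBNext Ultra II (experiment 2) libraries.

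Each experiment was fitted alone in edgeR 4.0.16 (R 4.3.3), after filterByExpr, with TMM factors and a mean for each group. Quasi-likelihood F tests were Benjamini-Hochberg adjusted over all 19629 and 19399 fitted genes. A call is an adjusted p under 0.05. Levels are counts scaled to library size with TMM factors (CPM), as mean ± SD of 3 libraries. Log2 fold changes are ± SE, the size of the change over the square root of F, and 95% intervals use a t distribution with the residual and prior degrees of freedom. An interaction is the difference of 2 log2 fold changes. There were 16 comparisons. With a group at 0 counts, a fold is a bound from 3 counts over the group. On simulated data for UTX_full against EV_full, 18770 genes, 100.0% of 2-fold and 99.0% of 1.5-fold changes were recovered. For UTX_FGFR3WT against EV_FGFR3WT, 19050 genes, these were 100.0% and 96.0%. Changes were planted only in genes with a mean above 2 CPM, and all genes were given the same variability between libraries. Recovery for collagens under that level was therefore not tested. At each fold 100 genes were changed, up and down in equal numbers, far fewer than were called in the real contrasts. Scaling under so wide a shift was not tested. In the simulations in turn, 9 and 3 unchanged genes were called. Library pairs of a group differed by chi-squares of 2.03 to 11.8 per degree of freedom, so none was a repeat deposit.

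Members, lists, comparisons and alternatives (size factors of DESeq2 in edgeR, DESeq2 1.42.0, no filter, a replicate block, the compared groups alone, each library left out) were chosen with earlier results of these data known. Members were named at 1 CPM or more in a group. Of each other list, up to 4 called genes with the largest change and at least 5 CPM in a group could be named, beside KDM6A, FGFR3 and markers of cell types. Lengths and gene models are from GENCODE 29 on GRCh38 and start regions from RefSeq on GRCh38.p14, neither the build of the notes.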

Additional observations from a re-analysis of the deposited data

Results flagged for a closer look

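These results stand out because an effect differed between conditions by a test of the difference itself, on the log2 scale, from edgeR. The effect of UTX differed between sphere and full medium, as sphere minus full, for 14 collagens. They were COL11A2 (-0.84 ± 0.31, adjusted p = 0.0392), COL12A1 (-1.84 ± 0.08, adjusted p = 1.75e-13), COL16A1 (0.55 ± 0.20, adjusted p = 0.0399), COL17A1 (-0.84 ± 0.07, adjusted p = 5.31e-09), COL27A1 (-0.35 ± 0.07, adjusted p = 0.000407), COL4A1 (-0.69 ± 0.26, adjusted p = 0.041) and COL4A2 (-1.97 ± 0.72, adjusted p = 0.0363). The others were COL4A3 (-2.88 ± 0.91, adjusted p = 0.0159), COL4A4 (-0.81 ± 0.26, adjusted p = 0.0153), COL4A5 (-0.63 ± 0.07, adjusted p = 2.35e-07), COL4A6 (-0.33 ± 0.08, adjusted p = 0.00173), COL5A2 (-1.95 ± 0.31, adjusted p = 3.78e-05), COL6A1 (-1.59 ± 0.13, adjusted p = 1.94e-09) and COL7A1 (-1.34 ± 0.09, adjusted p = 7.29e-11). In all but COL16A1 the difference was negative. The effect of HEAA differed between the media for 8 collagens, all with a negative difference: COL12A1 (-1.85 ± 0.08, adjusted p = 4.87e-13), COL17A1 (-0.91 ± 0.07, adjusted p = 2.84e-09), COL4A2 (-1.90 ± 0.70, adjusted p = 0.0415), COL4A5 (-0.70 ± 0.07, adjusted p = 9.11e-08), COL4A6 (-0.57 ± 0.08, adjusted p = 5.71e-06), COL5A2 (-1.74 ± 0.30, adjusted p = 0.000127), COL6A1 (-1.07 ± 0.13, adjusted p = 9.72e-07) and COL7A1 (-1.26 ± 0.09, adjusted p = 3.59e-10). Both sets of differences share the EV libraries. The UTX calls for COL11A2, COL16A1, COL4A1, COL4A2, COL4A3 and COL4A4 and the HEAA call for COL4A2 were each lost under at least 1 alternative. The effect of UTX differed between FGFR3 S249C and wild type FGFR3 for COL6A2 (-2.19 ± 0.42, adjusted p = 0.0284), a call lost under 8 alternatives.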

How the results depend on the processing

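Under the 6 kinds of alternative, counts of called collagens stayed within 1.5 times the reported count except in 3 comparisons. The UTX by medium count of 14 was 9 to 13 with 1 library left out, lowest without EV_sphere replicate 3. DESeq2 gave 7 in place of 4 for UTX_FGFR3S249C against UTX_FGFR3WT. The UTX by FGFR3 count of 1 was 0 to 2 with 1 library left out. With the replicate number as a block it was 0, and no other count of called collagens moved by over 1.5 times; over all genes this interaction had 133 calls without the block and 80 with it. Numbers did not pair the libraries: deviations of same-numbered libraries correlated at -0.0573 to 0.0618 in experiment 1 and -0.0879 to 0.154 in experiment 2. Of 176 called fold changes of named collagens, 30 were lost under at least 1 alternative. The cause was not tested.

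Signs changed 122 times in 56 of 336 log2 fold changes, 109 times with 1 library left out; 0 of these values were called as reported and 0 under the alternative, whose lowest adjusted p was 0.381. With DESeq2 size factors the new values were 0.00 for COL5A3 in UTX_sphere against EV_sphere and 0.00 for COL12A1 in UTX_FGFR3S249C against EV_FGFR3S249C. With DESeq2 they were 0.00 for COL5A3 in UTX_sphere against EV_sphere and 0.00 for COL12A1 in UTX_FGFR3S249C against EV_FGFR3S249C. With no filter they were 0.02 for COL5A3 in UTX_sphere against EV_sphere, 0.00 for COL5A2 in UTX_full against HEAA_full, 0.00 for COL6A3 in HEAA_sphere against HEAA_full, 0.01 for COL18A1 in UTX by medium interaction, 0.02 for COL16A1 in HEAA by medium interaction and 0.00 for COL12A1 in UTX_FGFR3S249C against EV_FGFR3S249C. With the compared groups alone they were 0.01 for COL5A3 in UTX_sphere against EV_sphere and 0.00 for COL27A1 in EV_FGFR3S249C against EV_FGFR3WT. With the replicate block it was 0.00 for COL12A1 in UTX_FGFR3S249C against EV_FGFR3S249C.

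Values whose sign changed with 1 library left out had these ranges of the log2 fold change. For UTX_full against EV_full it was COL13A1 -0.60 to 1.34, COL5A3 -0.83 to 0.04 and COL8A1 -0.64 to 0.33. For UTX_sphere against EV_sphere it was COL11A2 -0.32 to 0.14, COL5A3 -0.04 to 0.06 and COL8A2 -0.36 to 0.16. For HEAA_full against EV_full it was COL5A3 -1.36 to 0.04 and COL8A2 -0.12 to 0.22. For HEAA_sphere against EV_sphere it was COL4A1 -0.19 to 0.19, COL6A3 -0.10 to 0.44 and COL8A2 -0.40 to 0.09. For UTX_full against HEAA_full it was COL12A1 -0.02 to 0.08, COL5A2 -0.13 to 0.10, COL5A3 -0.39 to 1.02 and COL6A3 -0.25 to 0.09. For UTX_sphere against HEAA_sphere it was COL11A2 -0.17 to 0.28, COL12A1 -0.05 to 0.05, COL4A2 -1.50 to 0.62, COL4A3 -0.29 to 0.82, COL5A2 -0.35 to 0.02 and COL8A2 -0.15 to 0.22. For EV_sphere against EV_full it was COL8A1 -0.07 to 0.28. For HEAA_sphere against HEAA_full it was COL6A3 -0.38 to 0.20. For UTX by medium interaction it was COL13A1 -0.66 to 1.28, COL18A1 -0.09 to 0.03, COL5A3 -0.05 to 0.83 and COL6A3 -0.56 to 0.15. For HEAA by medium interaction it was COL16A1 -0.11 to 0.09, COL1A1 -0.14 to 0.02, COL4A1 -0.01 to 0.37 and COL8A2 -0.44 to 0.05. For UTX_FGFR3WT against EV_FGFR3WT it was COL12A1 -0.05 to 0.05, COL13A1 -1.33 to 0.06 and COL6A3 -0.31 to 0.04. For UTX_FGFR3S249C against EV_FGFR3S249C it was COL11A2 -0.02 to 0.08, COL12A1 -0.09 to 0.12, COL16A1 -0.07 to 0.03, COL4A2 -0.12 to 0.05, COL6A1 -0.04 to 0.13, COL8A1 -0.28 to 0.13 and COL8A2 -0.25 to 0.02. For EV_FGFR3S249C against EV_FGFR3WT it was COL16A1 -0.13 to 0.08, COL18A1 -0.03 to 0.05, COL27A1 -0.05 to 0.05, COL4A6 -0.07 to 0.02 and COL6A3 -0.04 to 0.22. For UTX_FGFR3S249C against UTX_FGFR3WT it was COL11A2 -0.06 to 0.16, COL18A1 -0.01 to 0.08 and COL6A3 -0.18 to 0.16. For UTX by FGFR3 interaction it was COL12A1 -0.09 to 0.13, COL17A1 -0.02 to 0.12, COL18A1 -0.04 to 0.06, COL1A1 -0.10 to 0.04, COL4A1 -0.09 to 0.02, COL4A3 -1.04 to 0.21 and COL6A3 -0.30 to 0.05.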
